A study of Mus musculus with 46 samples.

Results

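The genes described here are 10 genes of the Golgi, of vesicle coats and of vesicle transport in mouse embryonic fibroblasts (MEFs): the coat genes Copg2 and Clta, the Golgi genes Golph3, Gcc1 and Rgp1, the small GTPase genes Arf5 and Rab2a, the ESCRT gene Chmp5, and the motor genes Dctn3 and Kif5b. They were chosen by name, with earlier results of these data known, among genes of 4 chromosome stretches in which the rows of the count table follow their genes. A minimum mean of 5 CPM was set (counts per total counts of the library, scaled to a common library size), which 10 of the 10 passed. They are 10 of the 33929 gene rows with at least 1 count, and 10 of the 8986 rows with enough counts to be tested. RNA was sequenced after 7 h of treatment in 4 groups of libraries: 12 of ATF4 KO MEFs with borrelidin at 600 nM, which inhibits the threonyl-tRNA synthetase, 11 of ATF4 KO MEFs with DMSO as the vehicle, 12 of wild type MEFs with borrelidin and 11 of wild type MEFs with vehicle. The wild type MEFs were a purchased line. The ATF4 KO cells were 1 line made by CRISPR/Cas9 editing of Atf4, the gene of the transcription factor that uncharged tRNAs induce through the kinase GCN2. Whether the KO line is a single clone is not given in the sources used here, so that a property of this line and the loss of Atf4 cannot be told apart. The labels number the libraries of a group as biological replicates and do not say whether each is a separate culture, so p-values measure the spread between these libraries.

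Proteins leave the endoplasmic reticulum (ER) in vesicles, are modified and sorted while they cross the Golgi, and are carried on to the cell surface, to lysosomes or back to the ER. Coat proteins shape each vesicle, small GTPases of the Arf and Rab families mark the membrane and recruit coats and tethers, and kinesin and dynein motors move the cargo along microtubules. Fibroblasts secrete large amounts of matrix protein along this route. ATF4 is the main transcription factor of the integrated stress response, which both a lack of amino acids and stress in the ER set off.

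Assigned counts ranged over the libraries from 2626605 to 3320558 in ATF4 KO with borrelidin, from 2444047 to 3388068 in ATF4 KO with vehicle, from 2047362 to 3043804 in wild type with borrelidin, and from 2476005 to 3467765 in wild type with vehicle. Most rows of the deposited table do not follow the gene that their identifier names. The members lie in 4 stretches of chromosomes 4, 6, 15 and 18 in which rows do follow their genes, and these stretches hold 1298 rows and 8.5% of all counts. The Atf4 row lies outside them, so the loss of Atf4 was not checked. Within the stretches, 5 of 5 markers of mesenchymal cells were expressed, with a summed level of at least 2509 CPM in every library. Most of that sum was Flnc, with group means from 2214 to 2783 CPM, while those of Reck ran from 23.5 to 55.2 CPM. The 2 epithelial markers summed to at most 4.75 CPM in any library. Of the 3 lymphoid markers Il7r was near 0, and Pax5 averaged 17.2 and 0.13 CPM in ATF4 KO and wild type with borrelidin, and 9.49 and 0.34 CPM in ATF4 KO and wild type with vehicle. The third, Cd72, shares 1423 exon bases with Tesk1. The summed level of these 3 ranged from 100.9 to 144.7 CPM in ATF4 KO with borrelidin, from 75.6 to 114.3 CPM in ATF4 KO with vehicle, from 67.2 to 116.9 CPM in wild type with borrelidin, and from 69.9 to 116.4 CPM in wild type with vehicle. The part of other cell types in the results below was not tested, and in bulk RNA fewer cells of a type and less RNA per cell cannot be told apart.

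The libraries of a group were not all alike. On the second principal component of the 500 most variable rows, with the members left out (21.9% of the variance), 14 libraries stood apart from the other 32: replicates 1 to 3 of ATF4 KO with borrelidin, replicates 1 to 3 of ATF4 KO with vehicle and replicates 1 to 8 of wild type with vehicle. Wild type with borrelidin had 0 of its 12 libraries among them. The component also separated the treatments, as the paper describes for its own second component. Among the other 32 libraries, scores ran from 7.18 to 10.63 in ATF4 KO with borrelidin, against 3.31 to 5.56 with vehicle. Wild type had 6.37 to 9.72 with borrelidin, against -0.43 to 1.52 with vehicle. The 8 wild type vehicle libraries that stood apart lay farthest from borrelidin, so leaving them out is not a check independent of treatment. Assigned counts and the shares of reads with no feature or no alignment overlapped between these libraries and the others of the same group. The labels give no batch. Libraries of both sets are present in both treatments of ATF4 KO and in both genotypes under vehicle, while in wild type the set and the treatment can be told apart only through the 3 vehicle libraries that did not stand apart. Under borrelidin only ATF4 KO holds libraries that stood apart, so with all libraries the genotypes differ there in the set as well. Libraries 5 and 10 of wild type with borrelidin were the 2 shallowest of the 46, and they held the highest shares of unaligned reads of their group. Each count below is therefore given for all libraries and without the 14, and each count of members also without the 2 shallow libraries where that changes it. The plot of normalized levels shows each library.

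**Figure D1:**
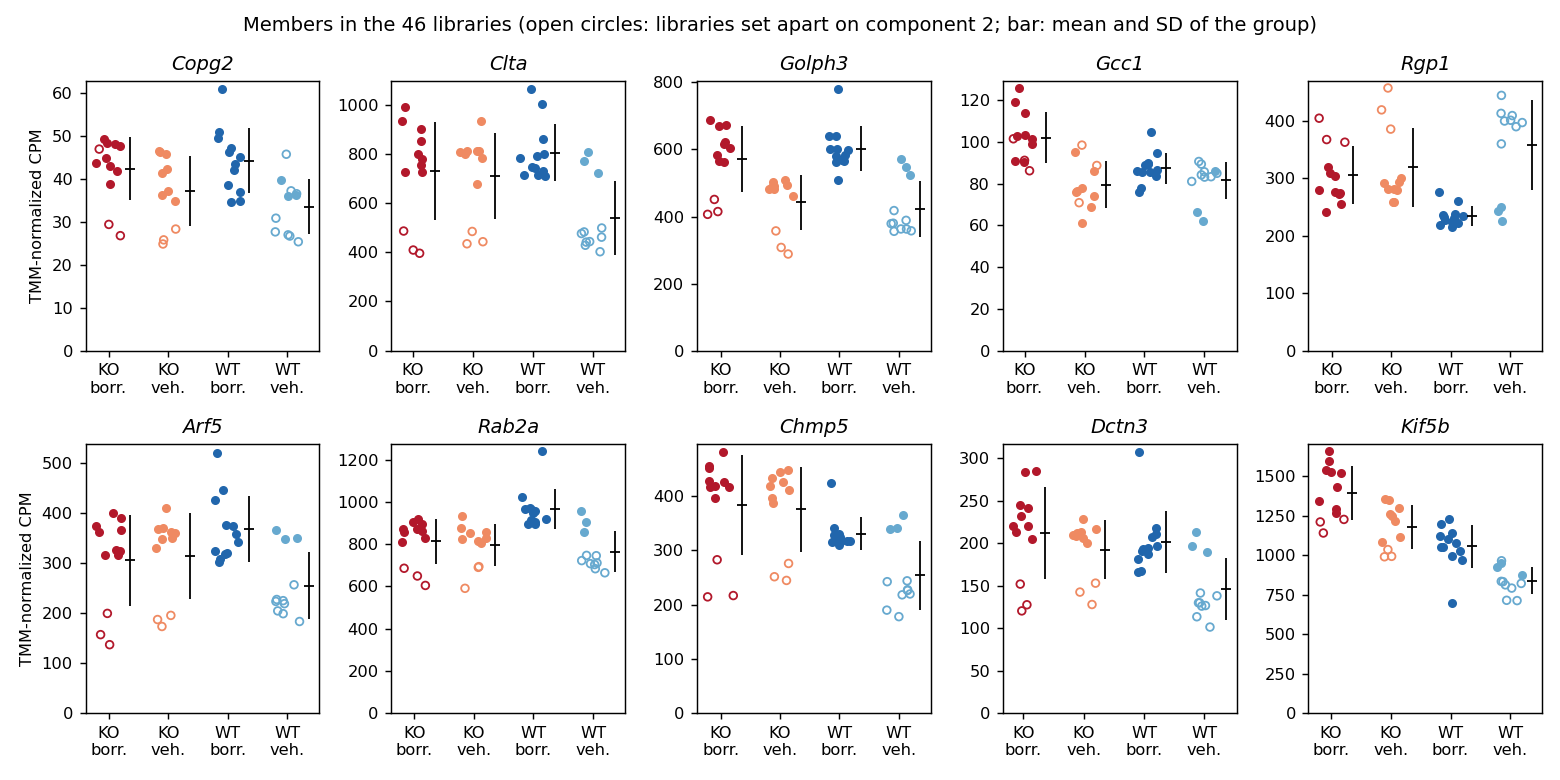
Normalized CPM of the 10 members in each of the 46 libraries, in one panel per gene with the axis starting at 0 (borr., borrelidin; veh., vehicle). Open circles are the 14 libraries that stood apart on the second component, and bars are the mean and SD of each group (n = 12, 11, 12 and 11). The open circles lie lowest in most panels and highest for Rgp1, where those of wild type with vehicle reach 444.5 CPM.

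Of the 10 members, 9 differed between the 2 sets of libraries in the same direction in each of the 3 groups that hold both sets, and Gcc1 did not. Arf5 was lower in the libraries that stood apart, by 1.10, 0.97 and 0.71 on the log2 scale of mean levels in ATF4 KO with borrelidin, ATF4 KO with vehicle and wild type with vehicle. Clta was lower by 0.95, 0.83 and 0.75 in the same 3 groups, and Chmp5 by 0.86, 0.71 and 0.68. Rgp1 was higher by 0.43, 0.58 and 0.75. For 7 members, namely Clta, Golph3, Rgp1, Arf5, Rab2a, Chmp5 and Dctn3, the libraries of the 2 sets did not overlap in any of the 3 groups. Gcc1 overlapped between the sets in 3 of 3 groups, with a log2 ratio of -0.18, 0.16 and 0.25. These ratios describe libraries that were separated by their other genes, and no test was made of them. The share of all rows without overlap between the sets was not computed, so the 7 members are not set against other genes.

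**Figure D2:**
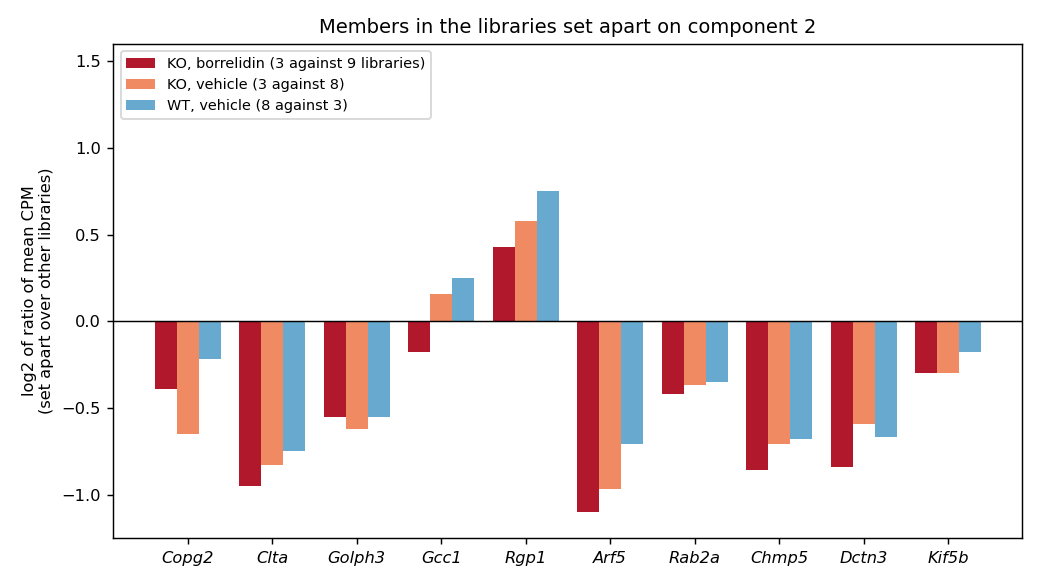
Log2 ratio of the mean normalized CPM in the libraries that stood apart to the mean in the other libraries of the same group, for each member and for the 3 groups that hold both sets. Bars below 0 are lower in the libraries that stood apart; 8 of the 10 genes are below 0 in 3 of 3 groups, Rgp1 is above 0 in 3 of 3, and Gcc1 is on both sides.

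Of the 10 members, 3 rose with borrelidin in ATF4 KO, with and without the 14 libraries: Golph3, Gcc1 and Kif5b. Over all rows the share called was 30.3% with all libraries and 41.1% without the 14. Of the 372 genes tested in the same chromosome stretches, 161 and 206 were called. In wild type 9 members passed the test with all libraries, against 57.5% of all rows, and 0 passed without the 14, against 10.5%. Of the 372 genes, 212 and 55 passed there. Kif5b and Chmp5 were higher in ATF4 KO than in wild type under vehicle, also without the 14 libraries. Under borrelidin ATF4 KO had higher levels of Rgp1, Gcc1 and Kif5b than wild type had, and a lower level of Rab2a, with and without the 14 libraries. No change of a called member exceeded 0.61 on the log2 scale in any comparison with all libraries.

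In ATF4 KO, borrelidin over vehicle gave 3 of 10 members with an adjusted p under 0.05 (edgeR quasi-likelihood test, Benjamini-Hochberg over the 8986 rows), 3 higher and 0 lower, against 30.3% of all rows tested (15.0% higher and 15.3% lower). The median log2 fold change of the members was 0.09, and that of the 372 genes tested in the same chromosome stretches was 0.04. Of these 372 genes 161 were called, 98 higher and 63 lower. Without the 14 libraries the same 3 members were called, and 206 of the 372. Without the 2 shallowest libraries as well, 4 of 10 passed, against 47.6% of all rows, with Dctn3 added (0.17 ± 0.06, adjusted p = 0.013). The set-apart ATF4 KO libraries (3 with borrelidin and 3 with vehicle, not taken as pairs) and the other ATF4 KO libraries were each fitted alone. These fits called 8.11% and 46.7% of all rows. Golph3 and Kif5b passed in both fits, while Gcc1 passed in the second fit (0.45, adjusted p = 2.8e-05) and not in the first (0.17, adjusted p = 0.45).

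In wild type, borrelidin over vehicle gave 9 of 10 members, 8 higher and 1 lower, against 57.5% of all rows tested (25.5% higher and 32.0% lower). Of the 372 genes of the stretches, whose rows follow their genes, 212 passed, 150 higher and 62 lower, so these also leaned higher. Without the 14 libraries 55 of the 372 passed. The median log2 fold change was 0.39 over the members and 0.18 over the genes of the stretches. Without the 14 libraries 0 of 10 members passed, with 0 of 10 at an unadjusted p under 0.05, against 10.5% of all rows, and the members ranged from -0.08 to 0.29 around a median of 0.08. This fit holds 3 libraries of wild type with vehicle. With the library set as a term in the model 0 of 10 passed as well, with 1 of 10 at an unadjusted p under 0.05, against 23.7% of all rows. DESeq2 and limma voom with all libraries called 9 and 9 members. Of all 8986 rows DESeq2 called 2308 higher and 2959 lower, and limma voom 2298 higher and 2815 lower.

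The difference of the responses, ATF4 KO minus wild type, passed in 5 of 10 members with all libraries, 2 positive and 3 negative, against 33.6% of all rows (17.1% positive and 16.5% negative). It passed in 2 of 10 without the 2 shallowest libraries (Gcc1 and Rgp1), against 34.3%, in 0 of 10 without the 14 libraries (1 of 10 at an unadjusted p under 0.05), against 9.68% of all rows, and in 1 of 10 with the library set as a term (Golph3, 0.24), against 20.4%. Golph3 was also the 1 member that passed without both the 14 and the 2 libraries (0.23 ± 0.07 SE, adjusted p = 0.025, against 15.1% of all rows), with the larger response in ATF4 KO. In the same fit the vehicle level of Golph3 was lower in ATF4 KO (-0.16 ± 0.06, adjusted p = 0.035), and under borrelidin the genotypes differed by 0.065 ± 0.04 (adjusted p = 0.17). With all libraries the difference passed in 163 of the 372 genes of the stretches, 56 positive and 107 negative. Without the 14 it passed in 73 of them.

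**Figure D3:**
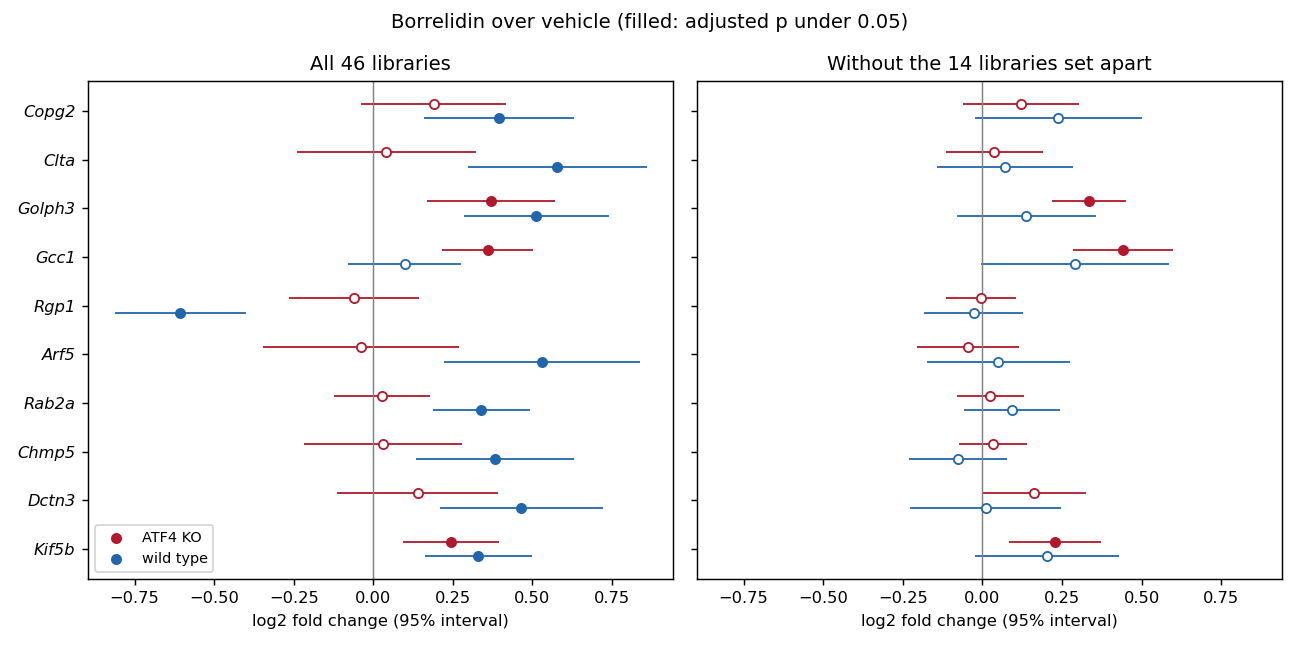
Log2 fold change of borrelidin over vehicle with its 95% interval for each member, in ATF4 KO (upper marks) and wild type (lower marks), with all 46 libraries on the left and without the 14 libraries on the right. Filled marks have an adjusted p under 0.05: 3 in ATF4 KO on both sides, and in wild type 9 on the left and 0 on the right.

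Under vehicle, ATF4 KO over wild type gave 4 of 10 members, 4 higher and 0 lower, against 35.3% of all rows tested, 18.1% higher and 17.2% lower (Clta, Chmp5, Dctn3 and Kif5b). Of the 372 genes of the stretches 148 passed there, 105 higher and 43 lower, and 97 without the 14 libraries. Without the 14 libraries 3 of 10 passed, against 20.6% of all rows: Rgp1, Chmp5 and Kif5b. Without the 2 shallowest libraries as well, 4 of 10 passed, 3 higher and 1 lower, against 27.8% of all rows, with Golph3 added as the lower one. Under borrelidin 4 of 10 passed, 3 higher and 1 lower, against 49.8% of all rows, 25.7% higher and 24.1% lower (Gcc1, Rgp1 and Kif5b higher, Rab2a lower). Of the 372 genes of the stretches 203 passed under borrelidin, 98 higher and 105 lower, and 237 without the 14 libraries. Without the 14 libraries 6 of 10 passed, against 53.0% of all rows, with Chmp5 and Dctn3 added. Without the 2 shallowest libraries as well, 7 of 10 passed, against 56.2%, with Clta added (0.13, adjusted p = 0.039). At the stricter threshold of 1e-10, 0 of 10 members passed in each of the 5 comparisons with all libraries, against 0.490% of all rows for ATF4 KO, 1.31% for wild type, 0.501% for the difference, 2.63% under vehicle and 5.49% under borrelidin. Without the 14 and the 2 shallowest libraries 1 of 10 passed it under borrelidin, Chmp5 (0.425 ± 0.04, adjusted p = 2.5e-12), against 9.45% of all rows.

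**Figure D4:**
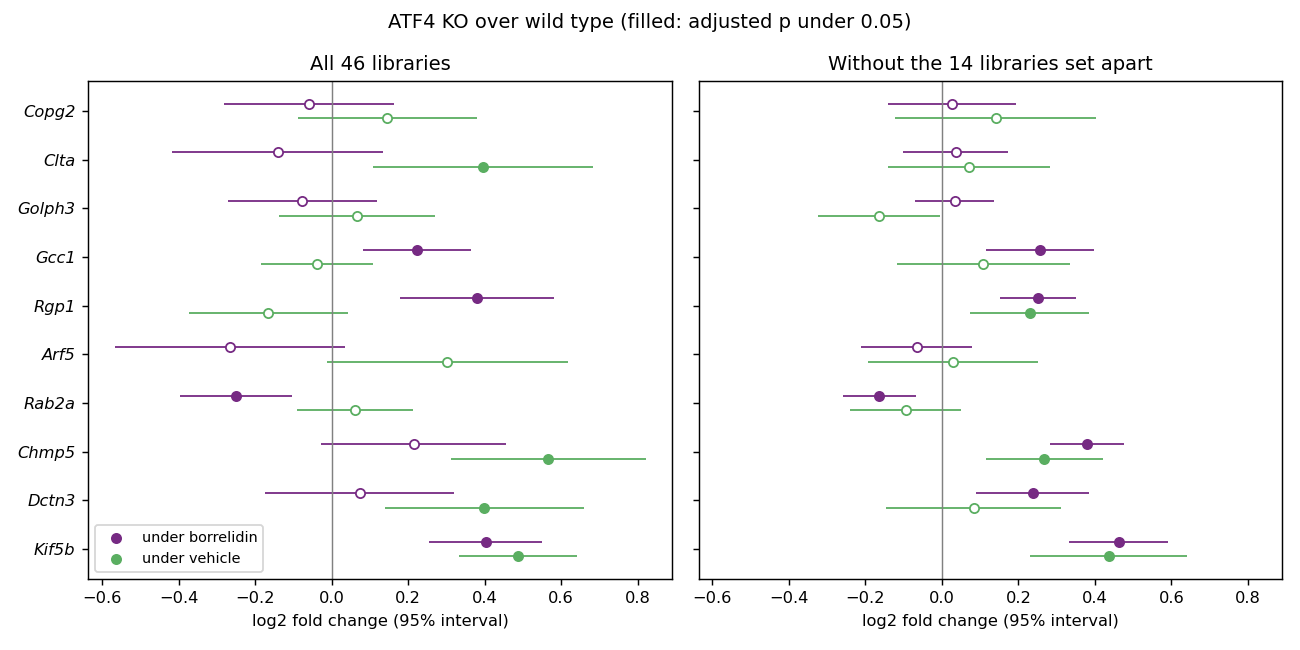
Log2 fold change of ATF4 KO over wild type with its 95% interval for each member, under borrelidin (upper marks) and under vehicle (lower marks), with all 46 libraries on the left and without the 14 libraries on the right. Filled marks have an adjusted p under 0.05; Kif5b is filled in 4 of 4 fits, between 0.40 and 0.49.

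Golph3 encodes a phosphoinositide-binding protein of the trans-Golgi that links the membrane to a myosin and helps to keep glycosyltransferases in the stack. The gene lies on chromosome 15 (GRCm38 12321450-12351591, plus strand). Its levels ran from 406.6 to 686.7 normalized CPM in ATF4 KO with borrelidin (median 594.4), against 288.3 to 508.9 in ATF4 KO with vehicle (median 483). Among libraries not set apart, 9 of 9 of ATF4 KO with borrelidin (562.7 to 686.7 CPM) lay above 8 of 8 with vehicle (462 to 508.9 CPM), and the groups did not overlap. The log2 fold change was 0.37 ± 0.10 (SE) with all libraries (adjusted p = 0.0043) and 0.34 ± 0.06 without the 14 (adjusted p = 1.3e-05). In wild type the levels ran from 510.3 to 779.5 CPM with borrelidin (median 590.4), against 356 to 572.7 CPM with vehicle (median 380.1). Of the vehicle libraries, the 8 set apart lay between 356 and 417.8 CPM and the other 3 between 523.9 and 572.7 CPM, inside the range of the borrelidin libraries. The wild type log2 fold change was 0.51 ± 0.12 with all libraries (adjusted p = 0.00024) and 0.14 ± 0.11 without the 14 (adjusted p = 0.49). Under vehicle ATF4 KO over wild type was 0.07 ± 0.10 with all libraries (adjusted p = 0.65), and -0.20 ± 0.055 with the library set as a term (adjusted p = 0.0032). Among vehicle libraries not set apart, 8 of 8 of ATF4 KO lay below 3 of 3 of wild type, with -0.165 ± 0.08 (adjusted p = 0.16). Golph3 shares 450 exon bases with 1810049J17Rik on the opposite strand, and since the strand setting of the counts is not given in the sources used here, reads of such overlapping genes cannot be told apart.

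Gcc1 encodes a coiled-coil tether of the trans-Golgi network that receives vesicles from endosomes. Its annotated span on chromosome 6 (28416091-28428390, minus strand) holds the whole of Arf5, with which it shares 313 exon bases on the opposite strand. Gcc1 had 86.1 to 125.8 CPM in ATF4 KO with borrelidin (median 101.3), against 61.2 to 98.4 CPM in ATF4 KO with vehicle (median 76.6). Of the 12 borrelidin libraries 8 lay above every vehicle library. The rise was 0.36 ± 0.07 on the log2 scale (adjusted p = 0.00014) and 0.44 ± 0.08 without the 14 libraries (adjusted p = 2.2e-05). Wild type had 76.1 to 104.7 CPM with borrelidin (median 86.2), against 62.0 to 90.5 CPM with vehicle (median 84.1), which overlapped. That difference was 0.10 ± 0.09 (adjusted p = 0.36) with all libraries and 0.29 ± 0.15 without the 14 (adjusted p = 0.23), and the difference between the genotypes was 0.15 without the 14 libraries (adjusted p = 0.58). When only the wild type libraries not set apart were fitted, Gcc1 had 0.29 ± 0.11 (adjusted p = 0.099). Under borrelidin Gcc1 was higher in ATF4 KO than in wild type by 0.22 ± 0.07 (adjusted p = 0.0083), and by 0.26 ± 0.07 without the 14 libraries (adjusted p = 0.0027).

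Rgp1 encodes a subunit, with Ric1, of the exchange complex that activates Rab6 on the Golgi. The gene is on chromosome 4 (43578715-43587487, plus strand) and shares 743 exon bases with Msmp and 159 with Gba2, both on the opposite strand. It was the member that stood highest, not lowest, in the libraries set apart. Rgp1 ran from 241.1 to 404.8 CPM in ATF4 KO with borrelidin (median 292.2), against 259.1 to 457.4 CPM in ATF4 KO with vehicle (median 292.2), and the groups overlapped. In wild type it ran from 215.4 to 276.4 CPM with borrelidin (median 232.1), against 226 to 444.5 CPM with vehicle (median 397.2). The wild type fold change was -0.61 ± 0.11 with all libraries (adjusted p = 6.3e-06) and -0.03 ± 0.08 without the 14 (adjusted p = 0.88). Between genotypes under borrelidin, 7 of 12 libraries of ATF4 KO lay above every wild type library. These 7 included the 3 set apart (363 to 404.8 CPM), while wild type with borrelidin holds no library set apart. Rgp1 was higher there by 0.38 ± 0.10 (adjusted p = 0.0019), and by 0.25 ± 0.05 without the 14 libraries (adjusted p = 6.4e-05). Under vehicle the same contrast was -0.17 ± 0.11 with all libraries (adjusted p = 0.23) and 0.23 ± 0.08 without the 14 (adjusted p = 0.035), where 8 of 8 libraries of ATF4 KO (259.1 to 301.3 CPM) lay above 3 of 3 of wild type (226 to 250.2 CPM).

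Promoter sequences of 3 members are shown beside these values. They were read from RefSeq for GRCm38.p6, from 250 bases before to 50 after the annotated start, and 9 such promoters were found for 8 of the 10 members. Golph3 and Gcc1 are shown because both rose in ATF4 KO, and Arf5 because it lies on the other strand within the annotated span of Gcc1. The Gcc1 promoter is that of a RefSeq start inside the span given above, not at its end. They are chr15:12321246-12321545 (plus strand), chr6:28421675-28421974 (minus strand) and chr6:28423354-28423653 (plus strand). Each is written 5′ to 3′ on the strand of the gene, with motif matches in capitals.
Golph3: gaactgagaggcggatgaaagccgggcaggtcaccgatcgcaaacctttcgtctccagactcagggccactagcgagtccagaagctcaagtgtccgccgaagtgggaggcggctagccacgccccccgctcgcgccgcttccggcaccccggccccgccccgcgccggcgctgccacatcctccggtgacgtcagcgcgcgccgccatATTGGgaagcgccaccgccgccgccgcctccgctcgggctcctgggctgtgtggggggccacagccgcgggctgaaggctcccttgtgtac
Gcc1: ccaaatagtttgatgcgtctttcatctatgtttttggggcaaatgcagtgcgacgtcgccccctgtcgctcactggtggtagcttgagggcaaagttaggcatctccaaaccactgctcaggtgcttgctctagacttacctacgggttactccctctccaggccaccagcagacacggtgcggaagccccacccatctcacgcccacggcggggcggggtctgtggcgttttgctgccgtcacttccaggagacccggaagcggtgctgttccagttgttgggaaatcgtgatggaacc
Arf5: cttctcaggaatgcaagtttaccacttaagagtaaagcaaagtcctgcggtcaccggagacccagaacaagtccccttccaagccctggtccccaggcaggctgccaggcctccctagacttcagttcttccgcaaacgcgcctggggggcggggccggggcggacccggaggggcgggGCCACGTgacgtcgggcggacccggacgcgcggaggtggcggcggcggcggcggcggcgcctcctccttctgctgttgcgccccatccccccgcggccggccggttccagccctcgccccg
In Golph3 the capitals mark a CCAAT box read on the reverse strand, which begins 41 bases before the start. Those in Arf5 are GCCACGT, the reverse strand of the Golgi stress element ACGTGGC, which begins 71 bases before the start. Each motif was searched on both strands. The CCAAT box stood in 37.4% of the 32851 promoters and in those of Dctn3, Rgp1, Clta and Golph3. ACGTGGC stood in 2.58% of all promoters and in 1 of the 9 of members, that of Arf5. The ATF4 elements TGATGCAA and TGATGAAA stood in 0.895% and 1.02% of all promoters and in 0 of the 9, and the ER stress element (CCAAT and CCACG with 9 bases between, so that it contains a CCAAT box and shares CCACG with the Golgi stress element), in 0.119% and in 0 of the 9. No match in Gcc1 says only that these letters are not in this window.

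Arf5 encodes a class II Arf GTPase that acts between the ER and the cis-Golgi and recruits coats when loaded with GTP. Its position is chromosome 6 (28423560-28426602, plus strand). Levels ran from 137.5 to 400.6 CPM in ATF4 KO with borrelidin (median 326.6), against 173.9 to 410.5 CPM in ATF4 KO with vehicle (median 351.9). The fold change in ATF4 KO was -0.04 ± 0.16 with all libraries (adjusted p = 0.89), with an interval from -0.35 to 0.27, and -0.05 ± 0.08 without the 14. In wild type they ran from 303.6 to 520.4 CPM with borrelidin (median 350.9), against 183.9 to 366.8 CPM with vehicle (median 225.6). The 3 wild type vehicle libraries not set apart had 349.5 to 366.8 CPM, above each of the 8 set apart (183.9 to 257.3 CPM). The wild type response was 0.53 ± 0.16 (adjusted p = 0.0038) with all libraries and 0.05 ± 0.11 without the 14 (adjusted p = 0.84). Library 5 of wild type with borrelidin, a shallow one, held the highest level, 520.4 CPM.

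Rab2a encodes a Rab GTPase of the membranes between the ER and the Golgi. Its gene lies on chromosome 4 (8535644-8607778, plus strand), and 4.5% of the 50-base words of its longest transcript also occur in Gm5865. It had 604.8 to 917.3 CPM in ATF4 KO with borrelidin (median 858.2), against 591.2 to 931.3 CPM in ATF4 KO with vehicle (median 822.6). The difference was 0.03 ± 0.08 (adjusted p = 0.82), with an interval from -0.12 to 0.18. It had 896 to 1242 CPM in wild type with borrelidin (median 952.8), against 664.6 to 958 CPM in wild type with vehicle (median 722.2). The wild type response was 0.34 ± 0.08 (adjusted p = 0.00028), and 0.09 ± 0.08 without the 14 libraries (adjusted p = 0.5). Under borrelidin 10 of 12 libraries of ATF4 KO lay below every wild type library. These 10 included the 3 set apart (604.8 to 686 CPM), while wild type with borrelidin holds no library set apart. Rab2a was lower in ATF4 KO there, with a log2 fold change of -0.25 ± 0.08 (adjusted p = 0.0047) with all libraries and -0.16 ± 0.05 (adjusted p = 0.0047) without the 14. It was the 1 member called as lower in ATF4 KO in that comparison, where Arf5 had -0.27 ± 0.15 with all libraries (adjusted p = 0.15).

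Clta encodes clathrin light chain A, which sits on the heavy chain of the clathrin coat at the trans-Golgi network and the cell surface. It lies on chromosome 4 (44004452-44032846, plus strand). Levels ran from 395.9 to 988.3 CPM in ATF4 KO with borrelidin (median 766.3), against 434.4 to 932 CPM in ATF4 KO with vehicle (median 798.4). The groups overlapped, and the fold change was 0.04 ± 0.14 (adjusted p = 0.86). In wild type levels ran from 708.1 to 1062 CPM with borrelidin (median 765.3), against 402.1 to 807.1 CPM with vehicle (median 476.1). The response was 0.58 ± 0.14 (adjusted p = 0.00074) with all libraries and 0.07 ± 0.11 without the 14 (adjusted p = 0.74). The genotypes under vehicle differed by 0.39 ± 0.15 (adjusted p = 0.031) with all libraries and by 0.07 ± 0.11 without the 14 (adjusted p = 0.71).

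Copg2 encodes a gamma subunit of the COPI coat, which returns proteins from the Golgi to the ER. It lies on chromosome 6 (30747554-30896794, minus strand) and shares 912 exon bases, 17.8% of its exon length, with the imprinted gene Mest on the opposite strand. It had the lowest levels of the 10, with 26.8 to 49.3 CPM in ATF4 KO with borrelidin (median 44.3), against 24.9 to 46.5 CPM in ATF4 KO with vehicle (median 37.2). The fold change was 0.19 ± 0.12 (adjusted p = 0.22), with an interval from -0.04 to 0.42. In wild type it had 34.7 to 60.99 CPM with borrelidin (median 44.3), against 25.4 to 45.8 CPM with vehicle (median 36.1). That response was 0.39 ± 0.12 (adjusted p = 0.0048) with all libraries and 0.24 ± 0.13 without the 14 (adjusted p = 0.28). No comparison of genotypes passed for Copg2 in either fit.

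Chmp5 encodes an ESCRT-III related protein that works with the ATPase Vps4 in the sorting of cargo into multivesicular endosomes. The locus is on chromosome 4 (40948407-40965303, plus strand). Levels were 214.3 to 480.7 CPM in ATF4 KO with borrelidin (median 417.5), against 244.5 to 446.9 CPM in ATF4 KO with vehicle (median 410.7). Borrelidin gave 0.03 ± 0.13 in ATF4 KO (adjusted p = 0.9), and 0.03 ± 0.06 without the 14 libraries. Wild type levels were 309.6 to 423.5 CPM with borrelidin (median 320.0), against 177.9 to 365.7 CPM with vehicle (median 227.3). The wild type response was 0.38 ± 0.13 (adjusted p = 0.0093) with all libraries and -0.08 ± 0.08 without the 14 (adjusted p = 0.61), so that its sign turned. Between genotypes Chmp5 was higher in ATF4 KO under vehicle by 0.57 ± 0.13 (adjusted p = 0.00046) and, without the 14 libraries, by 0.27 ± 0.08 (adjusted p = 0.0098). In that smaller set 8 of 8 libraries of ATF4 KO had 386.1 to 446.9 CPM, against 338.6 to 365.7 CPM in 3 of 3 of wild type, and the groups did not overlap. Under borrelidin the difference was 0.21 ± 0.12 with all libraries (adjusted p = 0.15) and 0.38 ± 0.05 without the 14 (adjusted p = 2.4e-08).

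Dctn3 encodes a small subunit of the shoulder of dynactin, the cofactor through which dynein pulls vesicles towards the centrosome. Its position is chromosome 4 (41714798-41723170, minus strand). It had 120.5 to 285.5 CPM in ATF4 KO with borrelidin (median 220.1), against 128 to 228 CPM in ATF4 KO with vehicle (median 208.8). Of the borrelidin libraries 5 lay above and 2 below every vehicle library. The fold change was 0.14 ± 0.13 (adjusted p = 0.45), and 0.16 ± 0.08 without the 14 libraries (adjusted p = 0.11). It passed when only the ATF4 KO libraries not set apart were fitted (0.17, adjusted p = 0.024). Wild type had 166.4 to 306.7 CPM with borrelidin (median 193.6), against 101.5 to 213.6 CPM with vehicle (median 130). That response was 0.46 ± 0.13 (adjusted p = 0.0024) with all libraries and 0.01 ± 0.12 without the 14 (adjusted p = 0.97). Dctn3 was higher in ATF4 KO under vehicle by 0.40 ± 0.13 with all libraries (adjusted p = 0.015) and by 0.08 ± 0.12 without the 14 (adjusted p = 0.68). Under borrelidin the order of these calls was the other way round, with 0.07 ± 0.13 for all libraries (adjusted p = 0.65) and 0.24 ± 0.08 without the 14 (adjusted p = 0.0075).

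Kif5b encodes the ubiquitous heavy chain of kinesin-1, which carries vesicles and organelles towards the ends of microtubules at the cell edge. Its position is chromosome 18 (6201002-6242174, minus strand). Levels were 1142 to 1659 CPM in ATF4 KO with borrelidin (median 1390.0), against 991.5 to 1358 CPM in ATF4 KO with vehicle (median 1220.0). Of the 12 borrelidin libraries 6 lay above every vehicle library. The rise was 0.25 ± 0.08 (adjusted p = 0.012), and 0.23 ± 0.07 without the 14 libraries (adjusted p = 0.011). Wild type levels were 697.8 to 1232 CPM with borrelidin (median 1067), against 714.1 to 966.4 CPM with vehicle (median 833.9). There 11 of 12 borrelidin libraries lay above every vehicle library, and 1, the shallow library 5, lay below them. The wild type response was 0.33 ± 0.09 (adjusted p = 0.0011) with all libraries and 0.20 ± 0.12 without the 14 (adjusted p = 0.28). Under vehicle 11 of 11 libraries of ATF4 KO lay above 11 of 11 of wild type, and Kif5b was the 1 member whose groups did not overlap there with all libraries. How many of all rows did not overlap there was not computed. The fold change was 0.49 ± 0.08 (adjusted p = 1.9e-06), and 0.44 ± 0.11 without the 14 libraries (adjusted p = 0.0017). Under borrelidin it was 0.40 ± 0.08 (adjusted p = 1.5e-05), and 0.46 ± 0.07 without the 14 (adjusted p = 1.6e-07). The antisense genes Gm17036 and AC113003.1 share 142 and 182 exon bases with Kif5b.

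Per kilobase of exon, the members spanned a wide range of mean levels over the 46 libraries. Rab2a and Clta had 392.6 and 388.1 normalized CPM per kb. Chmp5, Dctn3, Arf5, Golph3 and Kif5b followed with 221.5, 181.4, 163.9, 157.6 and 140.7 CPM per kb. Rgp1, Gcc1 and Copg2 were lowest, with 48.9, 16.6 and 7.72 CPM per kb.

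Over the 46 libraries several members varied together, which is given here as a description, since libraries of 1 set share their deviations. Clta and Arf5 had Pearson's r = 0.955 of log2 CPM over 46 libraries and 0.795 over the 32 not set apart. Clta and Dctn3 had 0.944 and 0.763. Clta and Rgp1 had -0.836 over 46 libraries and 0.115 over the 32. Among 326 other genes of the stretches, the gene most like Clta was Bag1, a co-chaperone gene (0.973 over 46 libraries, 0.750 over 32). That most like Rab2a was Cct5, a subunit of the cytosolic chaperonin (0.945 and 0.819), and that most like Chmp5 was Rab18 (0.936 and 0.786). For Rgp1 it was Npr2 (0.934 and 0.811), for Arf5 Fam221b (0.939 and 0.558), for Golph3 Zc3hc1 (0.913 and 0.720) and for Dctn3 Rpp25l (0.911 and 0.708). For Copg2 it was Nrf1 (0.789 and 0.453) and for Gcc1 Rnf19a (0.642 and 0.724). Kif5b was most like its antisense neighbour Gm17036 (0.920 and 0.911), with which it shares exon bases.

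Of 318 other genes of the secretory and endocytic pathways that were listed by family, 19 lie in the chromosome stretches, and 19 of these were tested. In ATF4 KO, borrelidin over vehicle gave 9 of 19, 5 higher and 4 lower, against 30.3% of all rows, and 13 of 19 without the 14 libraries, 6 higher and 7 lower, against 41.1%. Of the 372 genes tested in the stretches 161 passed with all libraries and 206 without the 14. The caveolin genes Cav2 and Cav1, which build the flask-shaped pits of the cell surface, fell there, with log2 fold changes of -0.87 ± 0.08 (adjusted p = 2.6e-12) and -0.70 ± 0.07 (adjusted p = 2.8e-11). Cav1 had 352 to 422.6 CPM in ATF4 KO with borrelidin, against 488.3 to 804.2 CPM in ATF4 KO with vehicle, without overlap. In wild type 12 of 19 passed, 7 higher and 5 lower, against 57.5% of all rows, and 2 of 19 without the 14 libraries, against 10.5%: Plekhf2, an endosomal phosphoinositide-binding gene (0.75, adjusted p = 0.0085), and Cav2 (-0.77, adjusted p = 0.022). In wild type 212 of the 372 genes of the stretches passed with all libraries, and 55 without the 14. With all libraries the 2 smallest p of the 19 were those of Plekhf2 (1.24 ± 0.15, adjusted p = 5.3e-09) and Erp44, a chaperone gene of the early secretory pathway (0.67 ± 0.12, adjusted p = 1.7e-05). Erp44 had 0.17 ± 0.08 without the 14 (adjusted p = 0.2).

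The difference of the responses passed in 11 of these 19 genes with all libraries, against 33.6% of all rows, and in 2 without the 14 libraries, against 9.68%. It passed in 163 of the 372 genes of the stretches with all libraries, and in 73 without the 14. With all libraries its smallest p among the 19 were those of Unc13b, a gene of vesicle priming (0.88 ± 0.18, adjusted p = 0.00024), and Cpne3, a calcium-dependent membrane-binding gene (-0.45 ± 0.11, adjusted p = 0.0011). Neither passed without the 14 libraries, with 0.68 for Unc13b (adjusted p = 0.078) and -0.36 for Cpne3 (adjusted p = 0.074). Creb3, whose product is a membrane-bound transcription factor released by cleavage in the Golgi, had 0.35 ± 0.15 with all libraries (adjusted p = 0.057) and 0.61 ± 0.10 without the 14 (adjusted p = 4.5e-05). Its levels without the 14 were 454.8 to 575.3 CPM in ATF4 KO with borrelidin, against 291.5 to 330.1 CPM in ATF4 KO with vehicle, and 184.5 to 246.8 CPM in wild type with borrelidin, against 178.6 to 206.3 CPM in wild type with vehicle. The ranges of the ATF4 KO groups did not overlap each other or those of wild type. Between genotypes 12 of 19 passed under vehicle, 11 higher and 1 lower, against 35.3% of all rows (18.1% higher and 17.2% lower). Of the 372 genes of the stretches 148 passed there, 105 higher and 43 lower, so these also leaned higher. Without the 14 libraries 10 of 19 passed under vehicle, 10 higher and 0 lower, against 20.6%. In that fit 97 of the 372 passed, 58 higher and 39 lower. Under borrelidin 11 of 19 passed, 10 higher and 1 lower, against 49.8% of all rows (25.7% higher and 24.1% lower), and 13 of 19, 12 higher and 1 lower, without the 14, against 53.0%. Of the 372 genes 203 passed under borrelidin with all libraries, 98 higher and 105 lower, and 237 without the 14. Creb3 was the first of the 19 under borrelidin, with 1.12 ± 0.10 (adjusted p = 2.5e-13), and Cav1 the next, with 0.51 ± 0.07 (adjusted p = 1.3e-08). Under vehicle these places were held by Plekhf2 (1.11 ± 0.13, adjusted p = 4.3e-10) and Cav1 (0.62 ± 0.07, adjusted p = 4.6e-10).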

How the data were processed

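The authors deposited raw counts of RNA-seq reads per gene for 46 libraries, not normalized and not pooled. Tools named for these steps are fastp, HISAT2 and feature counts in the paper, and HISAT2, HTSeq, limma and mm10 in the processing notes of the submitters. The sources used here give neither tool versions nor the strand setting or annotation release. Of 55416 gene rows 52083 were found in GENCODE M21. A further 5 rows name no gene and were left out of every test and library size. On average they held 69.0% (no feature), 10.8% (not aligned), 5.1% (low quality), 4.0% (several places) and 0.3% (ambiguous) of the reads of a library. Counts per library limit the precision of each value, which also depends on the spread between libraries.

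The main test was the quasi-likelihood test of edgeR 4.0.16 (R 4.3.3), with TMM, filterByExpr and Benjamini-Hochberg adjustment over 8986 rows, and a call is an adjusted p under 0.05. The wild type response came from the model given in the text of the paper (ATF4 activity and genotype), and 4 further comparisons came from 1 fit of the 4 group means. A figure legend of the paper names condition in place of genotype. ATF4 activity was coded here as high only in wild type with borrelidin, a coding that the paper does not spell out. With this coding the model holds 1 mean for both ATF4 KO groups, so a difference between these groups adds to the error of the wild type response. Errors of fold changes are SE taken from the test statistic, with intervals of 95%. Levels are TMM-normalized CPM, and correlations used log2 CPM with a prior count of 2. A library was set apart where it lay beyond a gap wider than 50% of the spread of component scores in its group. Alternatives used DESeq2 1.42.0, limma 3.58.1, median-ratio normalization, no filter, plain CPM, other designs, a threshold of 1e-10, and fits without some libraries. The fits within 1 library set and those without the 2 shallowest libraries were chosen after the data were seen. The tests were checked on simulated counts. No 2 libraries of a group differed by less than the sampling noise.

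The members and lists were chosen with earlier results of these data known. The genes named are the 10 members, for each member the most similar gene of the chromosome stretches, and of the other transport genes the 2 with the smallest p in each comparison. Creb3 in the difference of the responses was named after its values were seen. Replicate numbers in the labels are shared between groups. They were not taken as pairs, since the libraries of 1 number did not deviate together within the library sets.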

Additional observations from a re-analysis of the deposited data

Results flagged for a closer look

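For 5 members the borrelidin responses of ATF4 KO and wild type differed by the test of the difference itself, fitted over all 46 libraries. ATF4 KO minus wild type was -0.536 for Clta (adjusted p = 0.037), -0.568 for Arf5 (adjusted p = 0.043) and -0.311 for Rab2a (adjusted p = 0.023), and it was 0.545 for Rgp1 (adjusted p = 0.0046) and 0.261 for Gcc1 (adjusted p = 0.046). Without the 14 libraries that stood apart the same differences were -0.03, -0.09, -0.07, 0.02 and 0.15, and none of the 5 passed (adjusted p from 0.58 to 0.93). Wild type with borrelidin holds 0 of these 14 libraries and wild type with vehicle holds 8, so set and treatment cannot be told apart there beyond the 3 vehicle libraries of the other set. Without the 2 shallowest libraries Gcc1 and Rgp1 passed and Clta, Arf5 and Rab2a had -0.44, -0.47 and -0.26 (adjusted p = 0.089, 0.099 and 0.052).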

How the results depend on the processing

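The 5 counts of called members (9, 3, 5, 4 and 4 of 10, in the order wild type response, ATF4 KO response, difference, vehicle, borrelidin) stayed within 1.5 times under median-ratio normalization, DESeq2 and limma voom. At a threshold of 1e-10 each was 0 of 10. Without the filter 33929 rows were tested in place of 8986, and the difference had 1 and the borrelidin comparison 2 members called. Of all these rows 1341 were called positive and 1170 negative in the difference, and 2364 higher and 1942 lower under borrelidin. Gcc1 had 0.011 under vehicle in that fit. Numbers of replicates served as a block in 1 alternative: with the replicate block the counts were 9, 3, 6, 4 and 5, Gcc1 lost its call in the difference, and Chmp5 and Dctn3 (difference) and Arf5 (borrelidin) gained one. Of all 8986 rows that fit called, higher and lower, 2339 and 2862, 1456 and 1543, 1874 and 1775, 1874 and 1920, and 2347 and 2333, in the same order. The main fit called 1536 and 1486 in the difference, and 2306 and 2168 under borrelidin. The numbers were not taken as pairs: in ATF4 KO same-numbered libraries deviated together from their group means in 11 of 11 pairs (r from 0.18 to 0.78), but replicates 1 to 3 are the libraries set apart in both groups, and from the means of the sets r ranged from -0.22 to 0.12, with 2 of 11 over 0.1. In the wild type response, under vehicle and under borrelidin 2 of 11, 5 of 10 and 2 of 12 pairs were over 0.1 from group means, and 1, 0 and 1 from the means of the sets. Of the 22 ATF4 KO libraries 4 correlated best with the library of their own number.

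Counts for the wild type response and the difference, and many signs, changed with the library set, whose cause was not tested. The calls of Golph3, Gcc1 and Kif5b in the ATF4 KO response were the same with the set as a block and without the 14 libraries. The wild type response had 0 called with the set as a block and without the 14 libraries. It also had 0 in the fit of wild type libraries not set apart, where 12.6% of all rows were called. Without the 14 and the 2 shallowest it had 0 as well, with 680 rows higher and 545 lower of 8986. The difference had 1 with the set as a block and 0 without the 14 libraries. It had 1 without the 14 and the 2, and 2 without the 2 only. The borrelidin comparison had 7 without the 14 and the 2. With the set as a block the sign turned in the wild type response for Arf5 (-0.110), Chmp5 (-0.131) and Dctn3 (-0.016); in the difference for Copg2 (0.105), Clta (0.010), Golph3 (0.245), Arf5 (0.044), Chmp5 (0.134), Dctn3 (0.122) and Kif5b (0.097); under vehicle for Copg2 (-0.064), Golph3 (-0.197), Rgp1 (0.107), Arf5 (-0.141) and Rab2a (-0.112); and under borrelidin for Copg2 (0.041), Clta (0.020) and Golph3 (0.048). Without the 14 libraries it turned in the wild type response for Chmp5 (-0.077, also with wild type alone); in the difference for Golph3 (0.198), Chmp5 (0.111), Dctn3 (0.155) and Kif5b (0.025); under vehicle for Golph3 (-0.165), Gcc1 (0.108), Rgp1 (0.229) and Rab2a (-0.095); and under borrelidin for Copg2 (0.027), Clta (0.036) and Golph3 (0.033). Within ATF4 KO alone it turned for Clta (-0.026), Chmp5 (-0.062) and Dctn3 (-0.031) in the set-apart libraries and for Rgp1 (0.005) in the others.

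Without the 2 shallowest libraries Copg2 turned under borrelidin (0.004). Without these and the 14 the sign turned in the wild type response for Clta (-0.012), Arf5 (-0.041), Chmp5 (-0.112) and Dctn3 (-0.076); in the ATF4 KO response for Rgp1 (0.005); in the difference for Clta (0.060), Golph3 (0.229), Arf5 (0.006), Chmp5 (0.156), Dctn3 (0.250) and Kif5b (0.011); under vehicle for Golph3 (-0.164), Gcc1 (0.110), Rgp1 (0.230) and Rab2a (-0.094); and under borrelidin for Copg2 (0.097), Clta (0.131), Golph3 (0.065) and Arf5 (0.036).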
